A study of Homo sapiens with 6 samples.

Results

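The 35 genes described here encode proteins of the human centromere, the kinetochore and the spindle assembly checkpoint. They were taken by gene symbol from a list of named members, and all 35 were found among the 16809 genes of the deposited expression table. The cells were CAL-27, an established line from a human tongue squamous cell carcinoma. RNA sequencing covered 2 groups of 3 libraries each. One group was the normal control. The other had been treated for 24 h with elesclomol-Cu (ES-Cu), the copper ionophore elesclomol combined with copper at a ratio of 1:1, a mixture used to cause copper-dependent cell death. Neither the doses, nor how the control cells were handled, nor whether the libraries came from separate cultures is given in the sources used here, so the p-values rest on the spread of these libraries alone, which may be a technical one. Values are TPM, a transcript level scaled for gene length and library total, and sequencing depth was unknown because TPM keeps no read totals.

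The kinetochore is the protein assembly that joins a chromosome to spindle microtubules. Its base is centromeric chromatin marked by the histone H3 variant CENP-A, on which the constitutive centromere-associated network (CCAN) sits through the cell cycle. The outer part, made of the KNL1, MIS12 and NDC80 complexes, binds microtubules in mitosis and recruits the checkpoint proteins BUB1, BUBR1 (gene BUB1B), BUB3, MAD1, MAD2 and the kinase MPS1 (gene TTK), which hold back anaphase until every chromosome is attached. Many of these genes are transcribed mainly in G2 and mitosis, and fast-dividing carcinoma lines carry high levels of them.

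Most of the module, like most tested genes, was lower after ES-Cu as deposited, and the fold changes of its parts differed. CENPA and CENPB of the centromeric chromatin, the corona gene CENPF, NDC80, NUF2 and SPC24 of the NDC80 complex, the checkpoint genes BUB1 and BUB1B, and NSL1 were called at least 2-fold lower. The CCAN genes CENPN, CENPO, CENPQ and CENPU and the checkpoint gene BUB3 were not called, and MIS12 was called higher. Of the 34 members that had a mean of at least 1 TPM and were tested (limma, log2(TPM + 1), Benjamini-Hochberg over all tested genes), 28 (82.4%) were called lower and 1 higher, where 70.0% of all 11927 tested genes were called lower and 13.6% higher. In 29 of the 34 (85.3%) every ES-Cu library lay below every control library, and in 2 every ES-Cu library lay above, against 70.3% and 14.0% of tested genes. The members at least 2-fold lower numbered 9 (26.5%), against 18.2% of tested genes. The difference between these shares was not tested. The median log2 fold change was -0.66 over the members and -0.50 over all tested genes, and 19 of the 34 members lay below the latter. In bulk RNA, fewer cells expressing a gene, such as fewer cells in G2 and mitosis, and less RNA per cell cannot be told apart.

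The shift of the median gene matters for each direction below. TPM has a fixed total in every library, so a rise of some abundant genes would lower the others. Whether that accounts for the shift here was not tested. Each gene was therefore also tested after median-of-ratios scaling, which set the median gene to 0.00, and after quantile normalization (median -0.07). A log2 fold change given without a scale is as deposited and includes the shift of the median gene. Below, fell and rose are used for a gene called in the same direction as deposited, after median scaling and with quantile normalization. By that rule 16 members (47.1%) fell and 1 rose, where 31.2% of tested genes fell and 13.5% rose, and the other 17 tested members did not keep one called sign. After median scaling alone 16 members were lower and 9 higher, against 35.8% and 38.0% of tested genes, and with quantile normalization 19 were lower and 7 higher, against 39.9% and 31.4%. On each of these scales 2 members were at least 2-fold lower, against 4.49% of tested genes after median scaling and 3.77% with quantile normalization. The summed TPM of the 35 members was 1952, 2032 and 1963 in the control libraries and 1357, 1338 and 1364 in the ES-Cu libraries. The ES-Cu sum was 0.683 of the control sum on the deposited scale and 1.01 of it after median scaling.

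**Figure D1:**
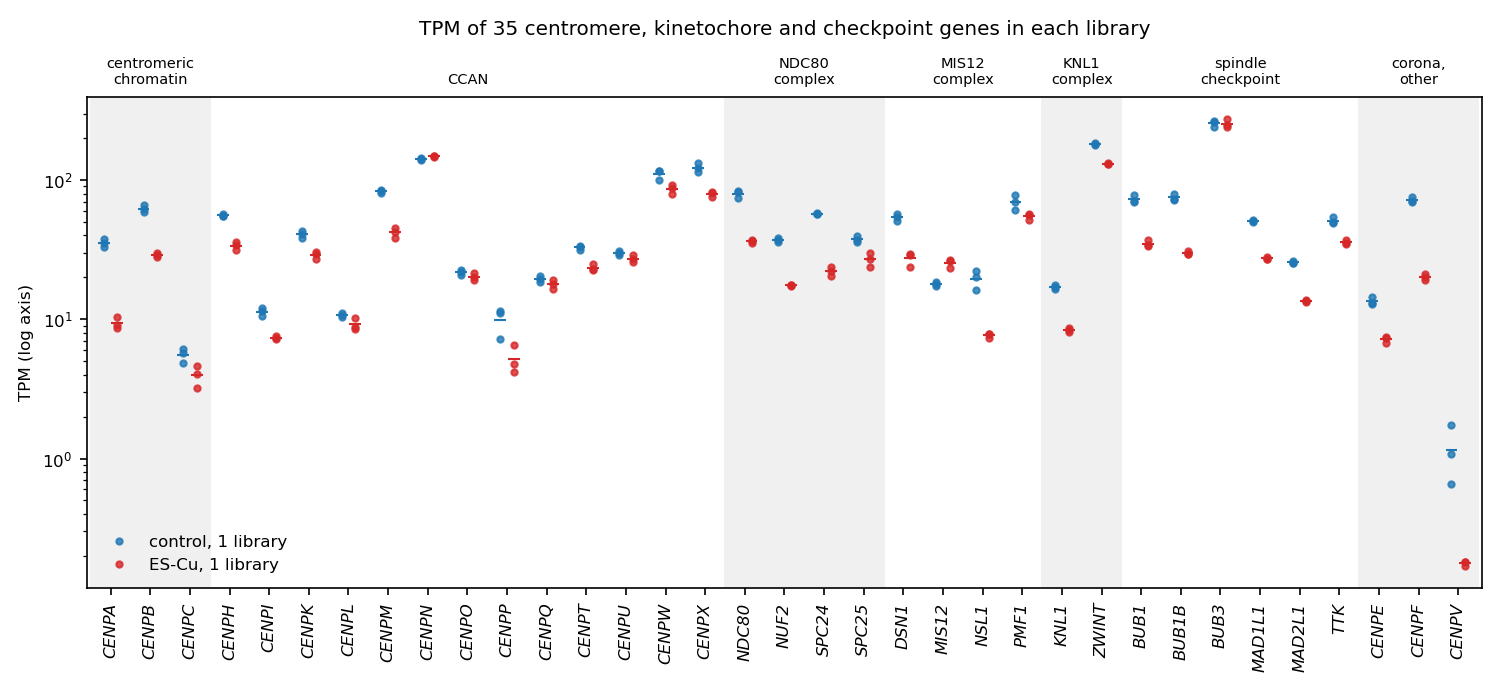
TPM of each of the 35 members (log axis) in 3 control (blue) and 3 ES-Cu (red) libraries, grouped by role; each point is 1 library and each short line a group mean. The red points lie below the blue ones for most genes, most of all, among the tested genes, for CENPA, CENPF, SPC24, BUB1B and NSL1, while MIS12 lies above and BUB3 overlaps.

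The cell identity and growth markers gave the following. The 8 epithelial markers included KRT5, KRT17 and EPCAM. Their sum was between 2521 and 2643 TPM in the controls and between 2927 and 2977 TPM with ES-Cu. All 8 were detected, KRT14 at only 4.73 ± 0.440 TPM in the controls, against 853 ± 22.8 TPM for KRT5. The 8 did not move together. SFN went from 640 ± 31.4 to 1233 ± 19.1 TPM. TP63 went from 86.8 ± 1.34 to 24.5 ± 0.922 TPM and CDH1 from 173 ± 2.33 to 71.3 ± 3.01 TPM. Of 4 fibroblast markers in the table, COL1A2 and COL3A1 were below 1 TPM on average. COL1A1 went from 8.36 ± 0.362 to 3.62 ± 0.269 TPM and PDGFRB from 2.23 ± 0.363 to 0.903 ± 0.0153 TPM. The sum of the 4 was 11.1 to 11.5 TPM in the controls and 4.46 to 5.14 TPM with ES-Cu. Of 3 endothelial markers PECAM1 and VWF were below 1 TPM (sum 7.14 to 7.47 TPM in control, nearly all CDH5, and 1.28 to 1.87 TPM with ES-Cu), and the 2 leukocyte markers in the table summed to at most 1.14 TPM. Among 10 genes of proliferating cells, 9 fell, against 31.2% of tested genes, and RRM2 did not (log2 fold change -0.09, adjusted p = 0.0886 as deposited; 0.46 after median scaling, limma). The sum of the 10 went from between 1783 and 1838 TPM to between 864 and 889 TPM. The part of this change in the values of the kinetochore genes was not tested.

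Promoters of mitotic genes often carry a cell cycle genes homology region (CHR; its usual core is TTTGAA, and a variant form of it is TTTAAA), which binds MuvB complexes with B-MYB and FOXM1 or with the DREAM repressor, beside CCAAT boxes bound by NF-Y. RefSeq promoter windows of 300 bases (250 before and 50 after the annotated start, GRCh38) were matched for 29 of the 35 members. The members without an entry were CENPH, CENPL, CENPM, KNL1, BUB3 and TTK. Both strands were searched for these 3 strings and for the E2F core, whose letters are GGCGGGAA. None of the 4 strings contains another, and the CHR variant reads the same on both strands. TTTGAA was found in 11 of 29 members (37.9%) and in 13.7% of tested genes with a window. It was present in 6 of 13 members that fell (BUB1B, CENPA, CENPF, MAD2L1, NDC80 and NUF2) and in 5 of 14 without one called sign (CENPC, CENPN, CENPO, SPC25 and ZWINT). CCAAT was found in 5 of 13 members that fell, in 11 of 14 without one called sign and in MIS12, against 43.6% of tested genes. TTTAAA was found in 3 members (10.3%, against 10.6% of tested genes), CENPA, CENPE and CENPF, all of which fell, and the E2F core in 5 members (17.2%, against 6.53% of tested genes), CENPA, CENPB, CENPN, SPC25 and the second listed start of MIS12.

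The bases before the start are shown for 2 genes with steep falls (CENPA and BUB1B), for the partner genes SPC24 and SPC25, which differed in their fold change, and for MIS12, which rose. They are written 5′ to 3′ on the gene's strand, with matches to the strings above, on either strand, in capitals. The positions are chr2:26785806-26786055 (plus strand) for CENPA, chr15:40160949-40161068 (plus) for BUB1B, chr19:11155783-11156032 (minus) for SPC24, chr2:168890431-168890550 (minus) for SPC25 and chr17:5486124-5486373 (plus, the first of 2 listed starts) for MIS12, all in RefSeq's GRCh38.p14.
CENPA: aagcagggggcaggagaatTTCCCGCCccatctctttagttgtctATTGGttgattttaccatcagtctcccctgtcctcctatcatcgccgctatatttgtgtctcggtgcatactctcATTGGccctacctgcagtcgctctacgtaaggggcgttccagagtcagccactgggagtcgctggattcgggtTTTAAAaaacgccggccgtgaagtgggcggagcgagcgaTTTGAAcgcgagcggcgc
BUB1B: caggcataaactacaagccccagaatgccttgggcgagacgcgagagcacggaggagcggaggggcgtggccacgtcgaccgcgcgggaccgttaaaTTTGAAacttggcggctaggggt
SPC24: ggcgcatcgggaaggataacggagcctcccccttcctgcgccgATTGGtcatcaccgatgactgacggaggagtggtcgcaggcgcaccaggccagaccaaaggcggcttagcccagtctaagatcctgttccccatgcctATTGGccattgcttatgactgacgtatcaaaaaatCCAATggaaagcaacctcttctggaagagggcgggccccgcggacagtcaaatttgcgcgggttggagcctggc
SPC25: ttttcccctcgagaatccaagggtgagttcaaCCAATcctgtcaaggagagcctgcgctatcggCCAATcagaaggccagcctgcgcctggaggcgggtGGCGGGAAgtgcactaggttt
MIS12: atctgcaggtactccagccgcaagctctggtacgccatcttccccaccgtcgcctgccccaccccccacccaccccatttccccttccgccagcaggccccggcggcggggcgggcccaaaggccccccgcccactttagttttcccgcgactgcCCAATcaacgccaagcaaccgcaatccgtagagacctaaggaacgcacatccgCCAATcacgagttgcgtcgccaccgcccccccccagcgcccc
CENPA held TTTGAA 18 to 13 bases before the start and BUB1B 23 to 18 bases before it. SPC25 had 2 TTTGAA matches that lie outside the stretch shown or run past its end. One of them spans the start itself, from 3 bases before it to 3 bases after it, as does the match in NDC80. SPC24 held 3 CCAAT matches and no TTTGAA, and MIS12 held 2 CCAAT matches and no TTTGAA in the window shown. A match is a string of letters and not a tested binding site.

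**Figure D2:**
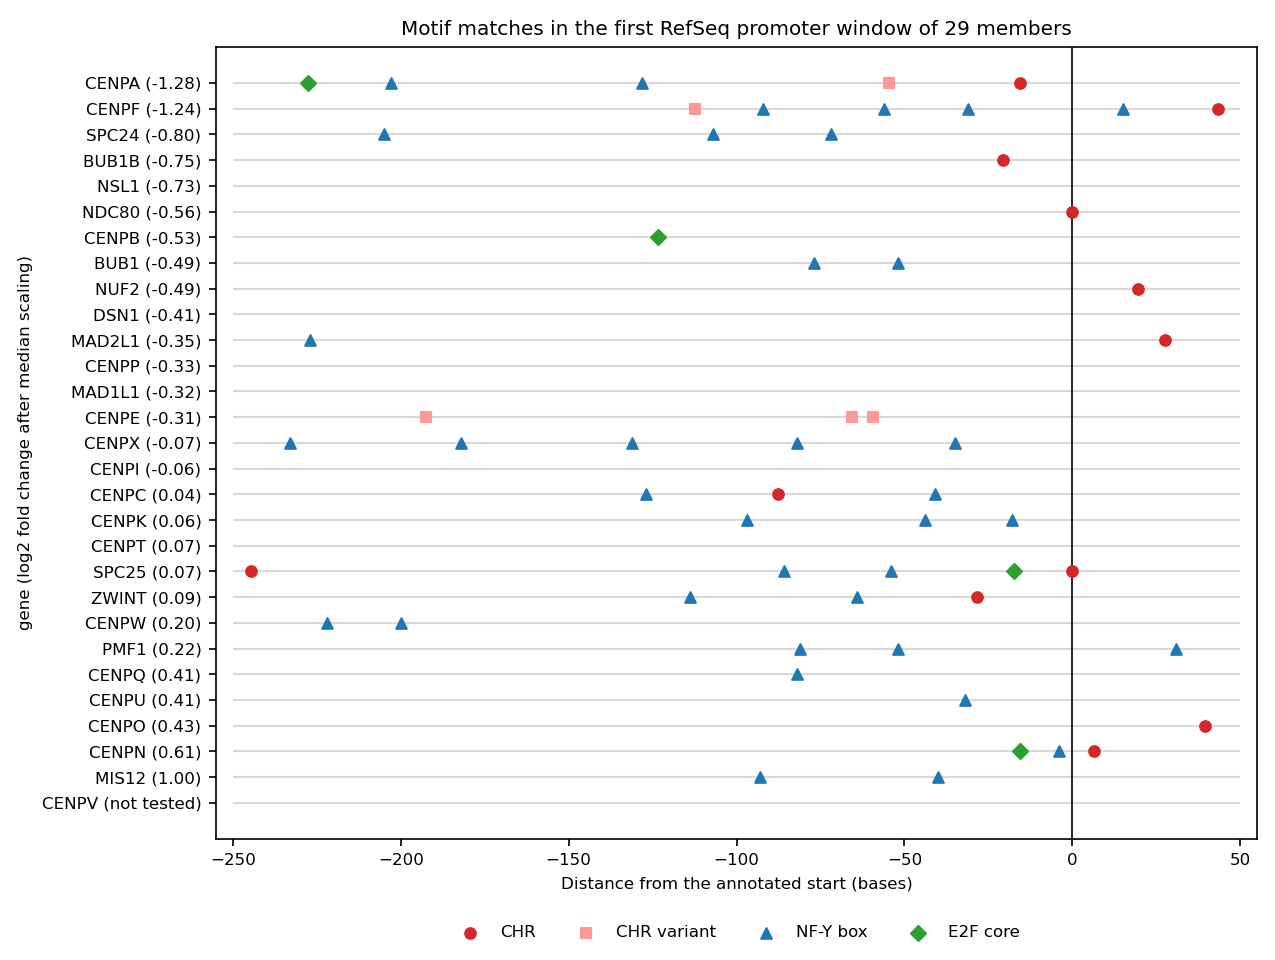
Positions of string matches in the first RefSeq promoter window of 29 members, as distance from the annotated start in bases, with genes ordered by their log2 fold change after median scaling (in brackets). CHR strings (TTTGAA, circles) occur from CENPA at -1.28 to CENPN at 0.61, and NF-Y boxes (CCAAT, triangles) occur in CENPA and in MIS12 at 1.00 alike.

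The role groups below hold 2 to 13 tested genes each, and their shares were not tested against those of all tested genes. The 3 genes of centromeric chromatin were called lower as deposited, against 70.0% of tested genes. CENPA and CENPB fell, against 31.2% of tested genes. CENPA, which encodes the histone H3 variant that marks the centromere, was at 35.1, 32.8 and 37.9 TPM in the control libraries and 9.11, 8.71 and 10.3 TPM in the ES-Cu libraries. The groups lay far apart, and the fall was the largest of the tested members as deposited and after median scaling, but smaller than that of CENPF with quantile normalization (log2 fold change -1.81 ± 0.0804 SE, adjusted p = 7.49e-09, limma; -1.28 after median scaling and -1.34 with quantile normalization). CENPB, which encodes the protein that binds the CENP-B box of alpha-satellite DNA, was at 66.0, 62.3 and 58.8 TPM in the controls and 29.1, 29.8 and 28.1 TPM with ES-Cu. It fell by 1.08 on the log2 scale as deposited (adjusted p = 2.54e-08, limma) and was at -0.53 after median scaling. CENPC, the gene of the protein that reads CENP-A nucleosomes and links them to the MIS12 complex, was the lowest tested member, at 5.58 ± 0.652 TPM in the controls and 3.95 ± 0.694 TPM with ES-Cu (mean ± SD, n = 3 libraries per group, as throughout). It was called lower as deposited (-0.41, adjusted p = 0.00999, limma) but was at 0.04 after median scaling (adjusted p = 0.762).

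The 13 CCAN genes had, of the 7 role groups, the median log2 fold change nearest to 0 as deposited, at -0.47, and one of 0.07 after median scaling. Only CENPM and CENPH fell (15.4%, against 31.2% of tested genes), and none rose (against 13.5%). CENPM, a small-GTPase-like subunit of the CENP-H/I/K/M group, was at 85.3, 84.1 and 80.3 TPM in the controls and 45.6, 42.5 and 38.5 TPM with ES-Cu. The groups did not overlap, and it fell by 0.97 on the log2 scale as deposited (adjusted p = 1.01e-07, limma). It was at -0.42 after median scaling. CENPH, its partner, went from 55.8 ± 1.44 to 33.8 ± 2.46 TPM. Its fall was the least firm of the 16, at -0.16 after median scaling (adjusted p = 0.0415, limma), and on that scale it was called in 4 of 12 alternatives (adjusted p from 0.0055 to 0.15 over the 12). It was lost on leaving out any one library other than ES-Cu replicate 2, with the replicate block, without a low-value filter and without the variance trend. CENPI (-0.56) and CENPK (-0.48), the remaining members of that group, were called lower only as deposited.

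Among the genes of the CENP-O group, which docks on the inner CCAN, and of CENP-L/N, whose CENP-N subunit contacts the CENP-A nucleosome, CENPN, CENPO, CENPQ and CENPU had log2 fold changes between -0.13 and 0.06 as deposited. CENPO was at 21.7, 21.0 and 22.5 TPM in the controls and 21.4, 19.3 and 20.02 TPM with ES-Cu, with overlapping groups (-0.10, adjusted p = 0.177, limma). CENPQ was at 19.5, 20.3 and 18.7 TPM and then at 19.0, 17.9 and 16.6 TPM, also overlapping. CENPU, whose product recruits the kinase PLK1 to kinetochores, was at 30.7, 29.9 and 28.8 TPM in the controls and 27.1, 28.7 and 25.9 TPM with ES-Cu. As deposited none of the 3 was called, while median scaling gave higher calls for CENPO (0.43), CENPQ (0.41) and CENPU (0.41), as did quantile normalization (0.33, 0.33 and 0.28). CENPU was called lower as deposited without ES-Cu replicate 2 (-0.16, adjusted p = 0.0321, limma). The fourth subunit gene, CENPP, was at 11.4, 11.1 and 7.25 TPM in the controls and 4.81, 4.21 and 6.50 TPM with ES-Cu. It had the widest spread between replicates of this group, and it was called lower as deposited (-0.81, adjusted p = 8.96e-04) but not after median scaling (-0.33, adjusted p = 0.110, limma).

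CENPN was one of the 2 members whose ES-Cu libraries all lay above the control libraries. It was at 141, 139 and 144 TPM in the controls and 148, 150 and 145 TPM with ES-Cu, a difference of 0.06 that was not called as deposited (adjusted p = 0.172, limma) but was called higher after median scaling (0.61) and with quantile normalization (0.26). Its partner CENPL was at 10.4, 11.1 and 10.8 TPM in the controls and 8.80, 8.58 and 10.3 TPM with ES-Cu. CENPL was called lower as deposited (-0.21, adjusted p = 0.0441, limma) and higher after median scaling (0.30), and the first call was lost on leaving out any one library other than ES-Cu replicate 3 (adjusted p from 0.0631 to 0.128), with the replicate block (0.0563) and without a low-value filter (0.0668). In the CENP-T/W/X group, of histone-fold proteins that form a second bridge to NDC80, CENPT (-0.47), CENPW (-0.35) and CENPX (-0.62) were called lower as deposited. CENPX was also called lower with quantile normalization (-0.36) but not after median scaling (-0.07). CENPW was at 99.4, 117 and 116 TPM in the controls and 87.2, 79.4 and 92.8 TPM with ES-Cu. It had a higher call with median scaling (0.20, adjusted p = 0.0212) but not with quantile normalization (-0.09, adjusted p = 0.291, limma). After median scaling that call held in 9 of 12 alternatives (adjusted p from 0.0128 to 0.0789, limma).

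The NDC80 complex, the main microtubule-binding unit of the outer kinetochore, fell in 3 of its 4 genes, against 31.2% of tested genes. NDC80, which encodes the subunit with the microtubule-binding head, was at 74.2, 83.1 and 82.1 TPM in the controls and 36.7, 35.2 and 37.3 TPM with ES-Cu. NUF2, its dimer partner, was at 35.7, 37.0 and 38.4 TPM in the controls and 17.7, 17.7 and 17.5 TPM with ES-Cu. Both fell to a similar extent, with log2 fold changes of -1.11 for NDC80 (adjusted p = 1.87e-08) and -1.03 for NUF2 (adjusted p = 3.46e-08, limma). These were -0.56 and -0.49 after median scaling. SPC24 and SPC25 form the other dimer, which holds the complex to the kinetochore. SPC24 was at 56.9, 57.6 and 57.1 TPM in the controls and 22.2, 20.4 and 23.6 TPM with ES-Cu, and it fell by 1.34 (adjusted p = 8.90e-09, limma). Its log2 fold change was -0.80 after median scaling. SPC25 was at 36.0, 39.6 and 37.4 TPM in the controls and 27.1, 30.04 and 23.7 TPM with ES-Cu, lower as deposited (-0.47, adjusted p = 2.06e-04, limma) but at 0.07 after median scaling (adjusted p = 0.485).

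The 4 genes of the MIS12 complex, which bridges CENP-C to NDC80 and KNL1, went in different directions. MIS12 was at 18.7, 18.0 and 17.3 TPM in the controls and 26.5, 26.1 and 23.2 TPM with ES-Cu. All ES-Cu libraries lay above all control libraries, and MIS12 was the only member that rose (0.47 ± 0.0697 SE, adjusted p = 7.47e-05, limma; 1.00 after median scaling and 0.91 with quantile normalization). NSL1 was at 22.4, 20.1 and 16.3 TPM in the controls and 7.84, 7.80 and 7.35 TPM with ES-Cu, and fell by 1.24 (adjusted p = 7.31e-07, limma). NSL1 was at -0.73 after median scaling. DSN1 fell too, from 54.0 ± 3.37 to 27.4 ± 3.23 TPM (-0.96, and -0.41 after median scaling). PMF1 was at 77.8, 69.6 and 60.7 TPM in the controls and 57.4, 51.5 and 56.0 TPM with ES-Cu. It was called lower as deposited (-0.33, adjusted p = 0.00293, limma), higher with median scaling (0.22, adjusted p = 0.0278) and was -0.0056 with quantile normalization (adjusted p = 0.956). After median scaling PMF1 was called higher in 6 of 12 alternatives (adjusted p from 0.00261 to 0.096, limma). Its value is uncertain, since the read-through gene PMF1-BGLAP, at 2.31 to 8.33 TPM over the 6 libraries, shares its sequence.

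Of the KNL1 complex, KNL1, which encodes the scaffold that BUB1 and BUBR1 dock on, fell from 17.04 ± 0.550 to 8.39 ± 0.250 TPM (-0.94, adjusted p = 3.26e-07, limma). KNL1 was at -0.43 after median scaling. ZWINT, its partner, stood more than 10 times higher in TPM, at 181 ± 3.27 in the controls and 131 ± 1.63 in ES-Cu. ZWINT was called lower as deposited (-0.46) and with quantile normalization (-0.27), and was at 0.09 after median scaling (adjusted p = 0.0536, limma).

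The checkpoint genes other than BUB3 and TTK fell (4 of 6, against 31.2% of tested genes). BUB1, which encodes a kinase that phosphorylates histone H2A at centromeres, was at 69.5, 78.6 and 71.1 TPM in the controls and 33.7, 34.02 and 37.3 TPM with ES-Cu (-1.04, adjusted p = 5.80e-08, limma). BUB1B, whose product BUBR1 is part of the mitotic checkpoint complex that inhibits the anaphase-promoting complex, was at 72.1, 79.3 and 73.6 TPM in the controls and 29.4, 29.2 and 31.1 TPM with ES-Cu (-1.30, adjusted p = 5.52e-09, limma). BUB1 was at -0.49 and BUB1B at -0.75 after median scaling. The BUB1B-PAK6 read-through gene, which shares sequence with BUB1B, was at 0 to 3.57 TPM. BUB3, the propeller protein that carries both to the kinetochore, had the highest level of the module, at 242, 266 and 259 TPM in the controls and 249, 242 and 273 TPM with ES-Cu. Its groups overlapped, and its log2 fold change was -0.0073 as deposited (adjusted p = 0.902), 0.55 after median scaling and 0.15 with quantile normalization (adjusted p = 0.0216, limma). MAD1L1 and MAD2L1 encode the MAD1 scaffold and the MAD2 effector, which is turned into its active form on MAD1. They fell by nearly equal amounts, MAD1L1 from 50.8 ± 0.901 to 27.4 ± 0.563 TPM (-0.86) and MAD2L1 from 25.7 ± 0.606 to 13.5 ± 0.275 TPM (-0.88). Their log2 fold changes were -0.32 and -0.35 after median scaling. TTK, the gene of the kinase MPS1 that starts checkpoint signalling, went from 50.9 ± 2.68 to 35.9 ± 1.19 TPM, lower as deposited (-0.49) and with quantile normalization (-0.15, adjusted p = 0.0334) but at 0.05 after median scaling (adjusted p = 0.428, limma).

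Both tested genes of the corona group, the fibrous outer layer that captures microtubules, fell, against 31.2% of tested genes. CENPF, which encodes a large coiled-coil protein that binds dynein regulators, was at 69.7, 75.2 and 70.9 TPM in the controls and 21.2, 19.2 and 20.2 TPM with ES-Cu. Its fall was close to that of CENPA (-1.78 ± 0.0575 SE, adjusted p = 8.50e-10, limma; -1.24 after median scaling and -1.42 with quantile normalization). CENPE, the gene of a kinesin that moves chromosomes to the spindle equator, fell from 13.5 ± 0.825 to 7.22 ± 0.378 TPM (-0.82, and -0.31 after median scaling). CENPV, placed in this group, was at 1.07, 0.66 and 1.74 TPM in the controls and 0.18, 0.17 and 0.18 TPM with ES-Cu. It did not reach the mean of 1 TPM needed for the test, and its groups did not overlap.

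**Figure D3:**
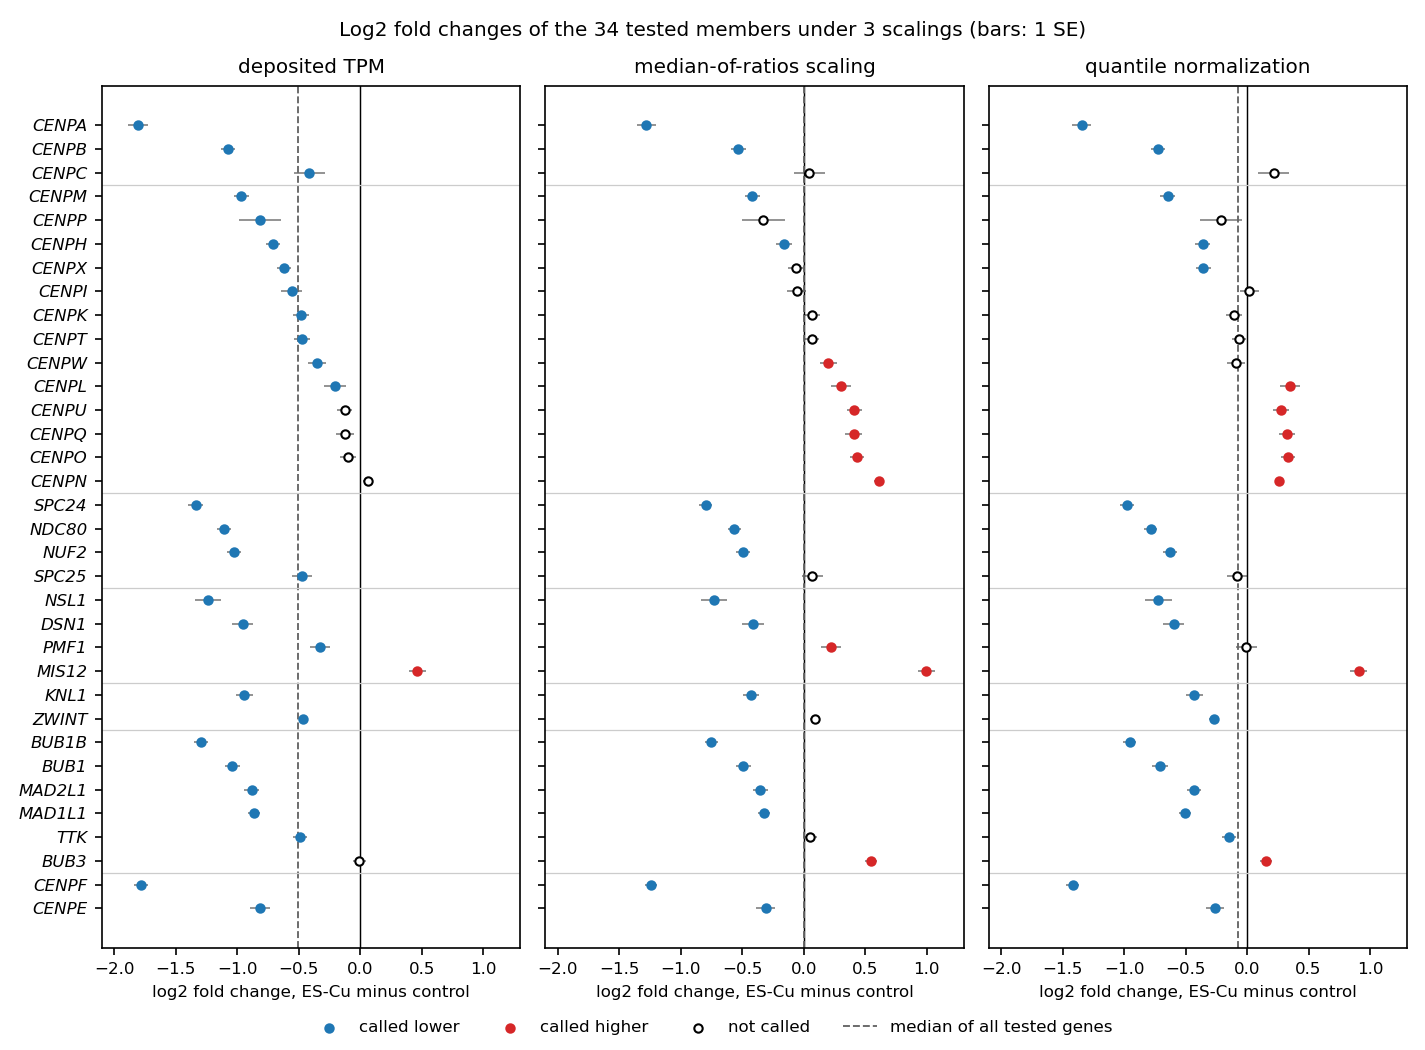
Log2 fold changes (ES-Cu minus control, log2(TPM + 1), bars 1 SE) of the 34 tested members as deposited, with median-of-ratios scaling and with quantile normalization, ordered by role and fold change; filled points were called at an adjusted p under 0.05 (limma) and the dashed line is the median of all tested genes. CENPA and CENPF lie far to the left in all 3 panels, MIS12 lies to the right in all 3, and 8 of the 13 CCAN genes lie on different sides of 0 in different panels, whereas CENPH, CENPM, CENPP and CENPX stay left of it and CENPN stays right.

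Levels of partner genes were also compared as TPM ratios within each library, which do not depend on how libraries are scaled to each other. The 15 pairs, called partners here, are genes whose products share a complex or bind each other directly, and not every pair is a dimer. The MIS12 complex was compared only as MIS12/DSN1 and NSL1/PMF1. An exact two-sided permutation test was used. Its smallest p for 3 against 3 libraries is 0.1, so it cannot pass 0.05. In 10 of the 15 pairs the ratios of the groups did not overlap (p = 0.1 each by the exact permutation test, 0.15 after Benjamini-Hochberg adjustment), and in 5 pairs the mean log2 ratio differed by at least 1. Over all pairs of tested genes above 0 in every library, 74.8% did not overlap and 33.3% differed by at least 1, so these counts do not set the partner pairs apart. SPC24 exceeded SPC25 in control, with ratios of 1.58, 1.45 and 1.53, and was below it in ES-Cu, with ratios of 0.817, 0.678 and 0.995. The MIS12/DSN1 ratio was 0.370, 0.315 and 0.319 in the controls and 1.12, 0.884 and 0.799 in ES-Cu, the largest difference of the 15 pairs (1.47 on the log2 scale). NSL1/PMF1 went the other way, from 0.282 ± 0.0111 to 0.140 ± 0.0104. BUB1 and BUB1B were both lower relative to their carrier, with BUB1/BUB3 at 0.286 ± 0.0104 and 0.138 ± 0.00279 and BUB1B/BUB3 at 0.293 ± 0.00787 and 0.118 ± 0.00340. CENPA/CENPC was 6.16, 5.32 and 7.76 in the controls and 1.98, 2.16 and 3.20 in ES-Cu.

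In the other 5 pairs the ratios overlapped between the groups. NDC80/NUF2 was 2.16 ± 0.0844 in the controls and 2.07 ± 0.0708 in ES-Cu (exact permutation p = 0.2), MAD1L1/MAD2L1 was 1.97 ± 0.0480 and 2.03 ± 0.0578 (exact permutation p = 0.2), and CENPQ/CENPU was 0.654 ± 0.0235 and 0.655 ± 0.0425 (exact permutation p = 1). CENPT/CENPW had an exact permutation p of 0.5 and CENPO/CENPP one of 0.2, the latter with a wide spread, at 2.30 ± 0.696 and 4.04 ± 0.830. KNL1/ZWINT, CENPH/CENPK, CENPL/CENPN and NDC80/SPC24 did not overlap but differed by less, between -0.56 for KNL1/ZWINT and 0.25 for NDC80/SPC24 on the log2 scale. As a share of the module's summed TPM, BUB3 went from 12.9% ± 0.439 to 18.8% ± 1.04 and CENPN from 7.15% ± 0.258 to 10.9% ± 0.279, while CENPF went from 3.63% ± 0.0676 to 1.49% ± 0.0639.

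**Figure D4:**
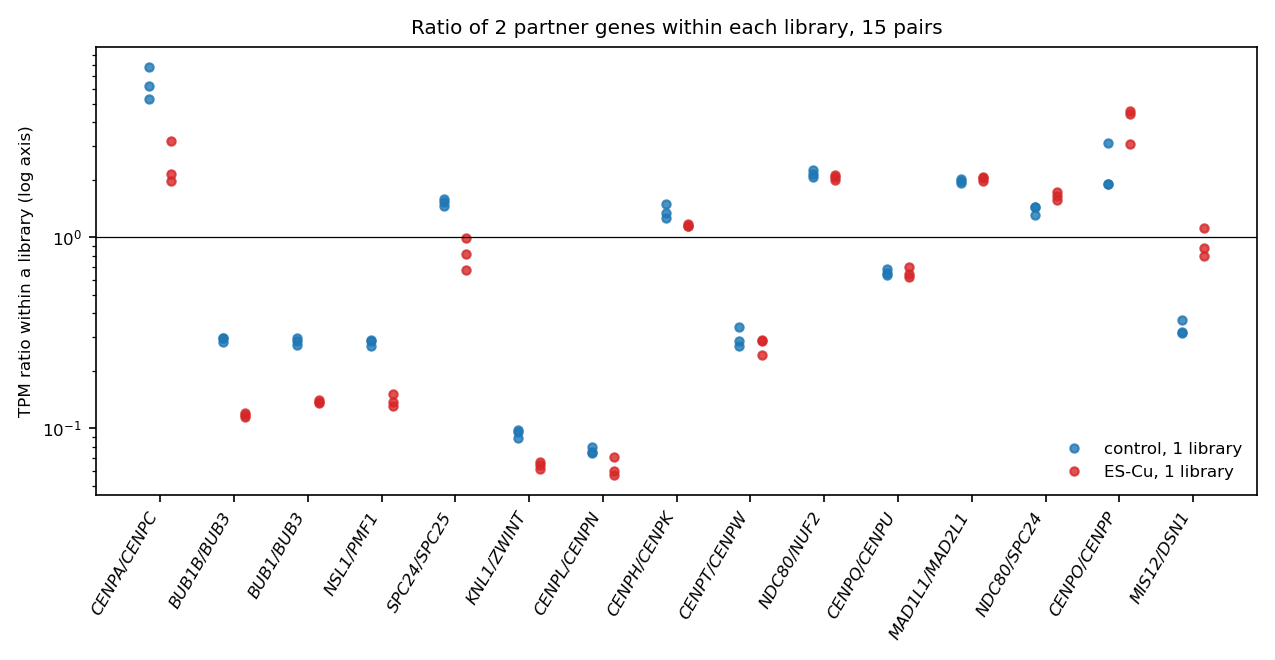
TPM ratio of 2 partner genes within each library (log axis) for 15 pairs, ordered by the difference between groups; each point is 1 library, blue for control and red for ES-Cu. CENPA/CENPC, BUB1B/BUB3, BUB1/BUB3, NSL1/PMF1 and SPC24/SPC25 are lower in ES-Cu, MIS12/DSN1 is higher, and NDC80/NUF2, CENPQ/CENPU and MAD1L1/MAD2L1 overlap.

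A further 37 genes of the same machinery, outside the module, gave 33 lower (89.2%, against 70.0% of tested genes) and 3 higher calls as deposited, and 19 fell (51.4%) and 3 rose in all 3 scalings, against 31.2% and 13.5% of tested genes. Their median log2 fold change as deposited was -0.72, against -0.50 over all tested genes. PLK1, the mitotic kinase that CENP-U recruits, was at 145, 143 and 145 TPM in the controls and 32.5, 32.0 and 32.6 TPM with ES-Cu. CDC20, the target of the checkpoint, fell from 337 ± 7.74 to 117 ± 8.67 TPM (-1.52, and -0.96 after median scaling). The mitotic kinase gene NEK2 fell from 65.0 ± 4.68 to 22.7 ± 2.41 TPM (-1.48, and -0.94 after median scaling). The 3 that rose were NDEL1 (0.78), a dynein regulator, MAD2L1BP (0.37), whose product p31comet helps to silence the checkpoint, and SKA1 (0.35), a subunit of the SKA microtubule-binding complex. Of the genes for CENP-A loading, HJURP, the chaperone that deposits CENP-A, fell from 53.0 ± 2.76 to 26.3 ± 1.61 TPM (-0.98, and -0.44 after median scaling). OIP5 fell as well (-1.16, and -0.62 after median scaling). MIS18A was called lower as deposited (-0.72) and with quantile normalization (-0.36) but not after median scaling (-0.17, adjusted p = 0.0739, limma).

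Of 15 transcription factors and cofactors known to act on mitotic genes, 10 were called lower and 3 higher as deposited (against 70.0% and 13.6% of tested genes), and 3 fell and 3 rose in all 3 scalings (against 31.2% and 13.5%). RBL2, the pocket protein p130 of the DREAM repressor, fell from 32.4 ± 0.723 to 12.4 ± 1.02 TPM (-1.32, adjusted p = 2.78e-08, limma, and -0.79 after median scaling). FOXM1, an activator of G2 and mitosis genes, fell from 88.3 ± 2.19 to 50.1 ± 3.23 TPM (-0.81, and -0.26 after median scaling). MYBL2, which encodes B-MYB, fell as well (-0.68, and -0.13 after median scaling, adjusted p = 0.0405, limma). E2F1 was called lower as deposited (-0.68) and with quantile normalization (-0.21) but not after median scaling (-0.16, adjusted p = 0.0732, limma). The 3 that rose were the MuvB subunit genes LIN37 (0.23) and LIN54 (0.27), the second of which encodes the protein that binds the CHR, and the NF-Y subunit gene NFYA (0.37). As deposited, the MuvB subunit genes LIN9 (-0.60) and RBBP4 (-0.43) and the NF-Y subunit gene NFYC (-0.58) were called lower. So were RBL1 (-0.44), E2F4 (-0.34) and TFDP1 (-0.36). RBBP4 (0.12), E2F4 (0.21) and TFDP1 (0.20) were called higher after median scaling. With quantile normalization RBBP4 (-0.12), TFDP1 (-0.15) and NFYC (-0.20) were called lower. LIN52 and NFYB were not called as deposited. They were called higher after median scaling (0.54 and 0.34) and with quantile normalization (0.56 and 0.31). None of these genes kept one called sign in all 3 scalings.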

How the data were processed

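Total RNA was sequenced in single-end reads of 50 bases on the BGISEQ500 platform, per the labels. The values are TPM as deposited by the authors, rounded to 2 decimals. HISAT and Bowtie2, with no version, come from the submitters' processing notes, and no source used here gives the quantification tool. The only build in those notes is GRCm38.p6, of mouse, although the genes are human, so the TPM values carry no coordinates here. Depth is unknown, so no counting interval was computed.

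The 11927 of 16809 genes whose mean over the 6 libraries reached 1 TPM were tested as log2(TPM + 1), on which changes of low genes come out smaller (limma 3.58.1, R 4.3.3, empirical Bayes with trend, two-sided, Benjamini-Hochberg, threshold 0.05, no block). Ratios had no pseudocount (SciPy 1.17.1). Values per library are given, by rule, for the 10 members with the largest change that reached 5 TPM in either group on average, every member called higher on any scaling and the highest member in control. Of the other lists the rule named the 3 largest changes and each gene called higher. Further members' values per library, HJURP, OIP5, MIS18A, MYBL2 and the read-through genes were chosen after their values were seen. LIN9, RBBP4, RBL1, E2F4, TFDP1, NFYC, LIN52 and NFYB were also given outside the rule. The members and lists were chosen with earlier results of these data known.

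Alternatives were 2 scalings, pseudocounts of 0.1 and 0.5, filters of 0 and 5 TPM, no trend, a replicate block and each library left out. Those for the regulators and for counts over 3 scalings were added after seeing the data. Tested on simulated libraries for ES-Cu against control (11927 genes), the code called 50 of 50 genes changed by -1, 45 of 50 by -0.5, 46 of 50 by 0.5 and 50 of 50 by 1 on the log2 scale, and 9 of 11727 unchanged genes. The changed genes were all above about 5 TPM in control, as many up as down, and every other gene was unchanged. That setting has no shift of the median gene, so it does not test the scaling. Promoter sequences came from RefSeq.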

Additional observations from a re-analysis of the deposited data

How the results depend on the processing

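Library scaling was the choice that moved the counts. After median-of-ratios scaling 16 members were called lower and 9 higher (28 and 1 as deposited), and 2 were at least 2-fold lower (9 as deposited). Quantile normalization gave 7 higher and 2 at least 2-fold lower. Of the 37 other kinetochore genes 19 were lower and 8 higher after median scaling, and 24 lower and 5 higher with quantile normalization. Of the 15 regulators 3 were lower and 8 higher, and 7 lower and 5 higher. Over all tested genes these shares were 35.8% lower and 38.0% higher after median scaling, and 39.9% and 31.4% with quantile normalization. The sum of the members was 1.01 of control after median scaling. Among the members with values per library by rule, CENPL, CENPO, CENPQ, CENPU and BUB3 changed sign under both, to 0.30, 0.43, 0.41, 0.41 and 0.55 after median scaling and to 0.35, 0.33, 0.33, 0.28 and 0.15 with quantile normalization. CENPW (0.20) and PMF1 (0.22) changed sign after median scaling. Of the remaining members, CENPC changed sign under both (0.04 and 0.22), CENPK, CENPT, SPC25, ZWINT and TTK after median scaling (0.05 to 0.09) and CENPI with quantile normalization (0.02), and none of these was called on the scale where its sign changed. That scaling sets the median gene to 0 by construction; for the quantile values the cause was not tested.

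With 1 library left out, 27 to 28 members were called lower and 1 higher, 8 to 10 were at least 2-fold lower, 15 to 16 were lower in all 3 scalings, and the summed TPM was 0.677 to 0.691 of control. BUB3 then ranged from -0.0579 to 0.0286, and CENPQ/CENPU from -0.0524 to 0.0361 on the log2 scale (0.0018 with 1 TPM added to both genes). The same-numbered libraries did not deviate together (correlations of 0.021, -0.034 and 0.011), and with the replicate block 27 members were lower, 1 higher, 9 at least 2-fold lower and 15 lower in all 3 scalings. CENPH left the latter group under 8 of 12 alternatives, CENPP joined it without control replicate 3 and CENPV without a filter. MIS12 was the 1 member higher in all 3 scalings under every alternative run. Low members such as CENPV and CENPC are limited by the unknown depth.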

Other observations

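Genes related to the module by name or sequence were looked up after the other values were seen. MAD2L2, a MAD2 paralog known for translesion synthesis, went from 107 ± 3.52 TPM in the controls to 67.4 ± 2.05 TPM with ES-Cu, above MAD2L1 in both groups. MAD2L2 was called lower as deposited (-0.66) and with quantile normalization (-0.38) but not after median scaling (-0.11, adjusted p = 0.0651, limma). CENPBD1, named for a CENP-B-like DNA-binding domain, fell from 5.33 ± 0.498 to 2.14 ± 0.398 TPM. The read-through gene CENPS-CORT fell from 18.8 ± 0.585 to 7.06 ± 0.311 TPM. CENPS, the histone-fold partner of CENP-X that shares its sequence, went from 37.2 ± 3.65 to 22.4 ± 1.55 TPM. CENPS was called lower as deposited (-0.70) and with quantile normalization (-0.31) but not after median scaling (-0.16, adjusted p = 0.103, limma). Reads of CENPS and CENPS-CORT could be split between them.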
